A study of Mus musculus with 5 samples.

Results

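MAP kinase cascades and the phosphatases that oppose them were compared between NIH3T3 cells, an immortalised line of mouse fibroblasts, and NIH3T3 cells that carry human ERBB2 (HER-2/NEU), a receptor tyrosine kinase. The genes were those whose official symbol begins with Map2k, Map3k, Map4k, Mapk, Dusp, Ptpn or Ptpr, on probes that the platform annotation assigns to a single symbol. This gave 73 of 9669 named genes, on 88 probes, of which 31 belonged to the kinase arm (kinases and their scaffolds) and 41 were phosphatases. The remaining gene, Ptprcap, encodes a CD45-associated protein that is no phosphatase.

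In the transfected line a cytomegalovirus promoter drives the human cDNA constitutively, so it models a receptor that is always overexpressed. The labels do not say whether the line is 1 clone. Both lines grew in the same serum-containing medium and differ in the labels by the transfected cDNA alone. Labelled cDNA of both lines was hybridised together on 5 spotted cDNA arrays, namely A1, A2 and A3 of preparation A and B1 and B2 of preparation B. Erbb2-transfected cDNA carried Cy3 on A1, A2 and B1 and Cy5 on A3 and B2.

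Receptor tyrosine kinases such as ERBB2 activate RAS, which starts a relay of kinases. A MAP3K phosphorylates a MAP2K, which phosphorylates a MAP kinase on a threonine and a tyrosine of its activation loop. The ERK arm is known for driving fibroblast growth and transformation, and the JNK and p38 arms for stress responses. Dual-specificity phosphatases (Dusp) remove both phosphates from MAP kinases, and several are themselves induced by the cascade they silence. Classical tyrosine phosphatases, either receptor-like (Ptpr) or cytosolic (Ptpn), act on the receptors and on their adaptors.

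Each value is a log2 ratio, turned so that a positive number means more signal from the Erbb2-transfected line. No source used here names the dye in the numerator. It was taken to be Cy5, the first channel in the labels, so the direction is likely rather than settled, and with the opposite reading all signs turn. No probe was assigned to Erbb2 alone, so the transfected receptor was not measured and could not show the direction. A gene was tested when it had values in both dye orientations of both preparations, and its value is the mean ± SD of the 2 preparations. This held for 25 of the 73 genes (34.2%, against 32.4% of all named genes). Nothing in the labels says that the preparations were separate cultures, so the p-values measure only the spread between these samples, which may be technical. That spread is mostly the one shared over all tested features, not a gene's own (10.2 prior against 1 residual degrees of freedom). Arrays held values for 5368 to 17463 of 20205 probes, and their number limits the precision. A ratio gives no level, so fibroblast identity could not be checked with these arrays. Values were present for 8 of 10 fibroblast markers, while Pdgfra and Lum had no probe assigned to them alone. Markers of other cells also had values: 3 of 5 of epithelium, 4 of 8 of leukocytes, 1 of 5 of endothelium and 3 of 4 of skeletal muscle. Of the 5 fibroblast markers tested, 3 fell in Erbb2-transfected cells (limma): Col1a1 at -4.93, Col1a2 at -3.97 and Fn1 at -4.61. They moved in the same direction as Ptprs, and their part in any result here was not tested. Vim, at 0.47, and S100a4, at -0.014, did not pass. Of markers of other cells, 3 were tested and none passed (limma, 0 at an unadjusted p under 0.05). These were Krt19 of epithelium, Flt1 of endothelium and Tnnt3 of skeletal muscle, and no leukocyte marker was tested.

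The sequence upstream of Ptprs, the only gene among the 25 that passed the test, and of Dusp1 and Dusp6, the MAP kinase phosphatases with the largest differences in each direction, was read from RefSeq for GRCm38.p6. Windows of 250 bases before each transcript start were searched on both strands for the E-box CACGTG, the cAMP response element TGACGTCA, the AP-1 site TGANTCA, the CArG box of serum response factor and the GC box GGGCGG. Capitals mark matches, and these motifs were chosen after the results were known. The Ptprs window lies at chr17:56476481-56476730 on the minus strand, and the part before the annotated gene, chr17:56476562-56476730, is shown. Dusp1 lies on the minus strand at chr17:26508473-26508722 and Dusp6 on the plus strand at chr10:99262981-99263230.
Ptprs: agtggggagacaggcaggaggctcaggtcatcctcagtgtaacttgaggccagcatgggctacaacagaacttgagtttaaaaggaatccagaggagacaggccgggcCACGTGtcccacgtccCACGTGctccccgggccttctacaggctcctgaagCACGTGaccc
Dusp1: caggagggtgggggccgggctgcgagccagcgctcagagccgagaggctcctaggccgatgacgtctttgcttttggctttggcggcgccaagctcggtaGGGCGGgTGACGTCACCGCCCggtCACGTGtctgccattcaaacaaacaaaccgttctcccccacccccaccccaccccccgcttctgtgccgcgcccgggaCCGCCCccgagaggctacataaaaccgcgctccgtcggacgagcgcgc
Dusp6: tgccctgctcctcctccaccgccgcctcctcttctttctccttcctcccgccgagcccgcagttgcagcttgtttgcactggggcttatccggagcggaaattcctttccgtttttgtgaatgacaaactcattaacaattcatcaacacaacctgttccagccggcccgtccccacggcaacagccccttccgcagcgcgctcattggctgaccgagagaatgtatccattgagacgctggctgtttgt

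The Ptprs window held 3 E-boxes, starting 142, 126 and 91 bases before the transcript start. Of 32851 windows in the table, 6.02% held at least 1 E-box and 0.0609% held 3 or more. The window of a second Ptprs transcript, inside the gene at chr17:56462222-56462471, held 3 GC boxes and no E-box. In the Dusp1 window, a cAMP response element 143 bases before the start, found in 1.55% of windows, abuts a GC box without overlapping it, with an E-box 126 bases before the start. The Dusp6 window held none of the 5 motifs. For 62 of the 73 genes the table held a promoter. Of their 81 windows, 6 held an E-box (7.41%), 2 the cAMP response element (2.47%, Dusp1 and Ptpn11), 2 the AP-1 site (2.47%, against 6.75% of all windows) and 0 a CArG box (1.47% of all windows). The GC box was found in 47 of them (58.0%, against 32.7%). A match describes the letters and is not evidence of a bound factor.

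Of the 25 tested genes, 1 fell, 0 rose and 24 did not pass (limma's moderated test, Benjamini-Hochberg adjusted p under 0.05 over 4892 features). That is 4% of them, against 6.79% of all tested features, of which 2.25% were higher and 4.54% lower. The share is thus not above the background. At an unadjusted p under 0.05 there were 7 of 25 genes and 1118 of 4892 features. The median of the 25 genes was 0.12, against -0.02 over all features, with 15 genes above 0 and 10 below. On every array with a value, 11 of 25 genes kept 1 sign (44.0%), against 24.3% of all tested features.

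Ptprs, which encodes receptor-type tyrosine phosphatase sigma, a receptor of heparan and chondroitin sulphate proteoglycans, fell. Its 1 probe had -2.09 on A1, -2.02 on A2, -2.17 on A3, -1.40 on B1 and -2.49 on B2. It was lower in Erbb2-transfected cells on all 5 arrays, with B1 nearest to 0, and the 3 arrays of preparation A lay within the range of the pair from B. The mean was -2.03 ± 0.12 (SD, n = 2; 95% interval -2.48 to -1.58; limma adjusted p = 0.000135), a level 4.08-fold lower. Averaged by dye orientation it had -1.73 with Erbb2-transfected cDNA in Cy3 and -2.33 in Cy5. It ranked 26th of 222 falls, and 20th of 167 falls of named genes.

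**Figure D1:**
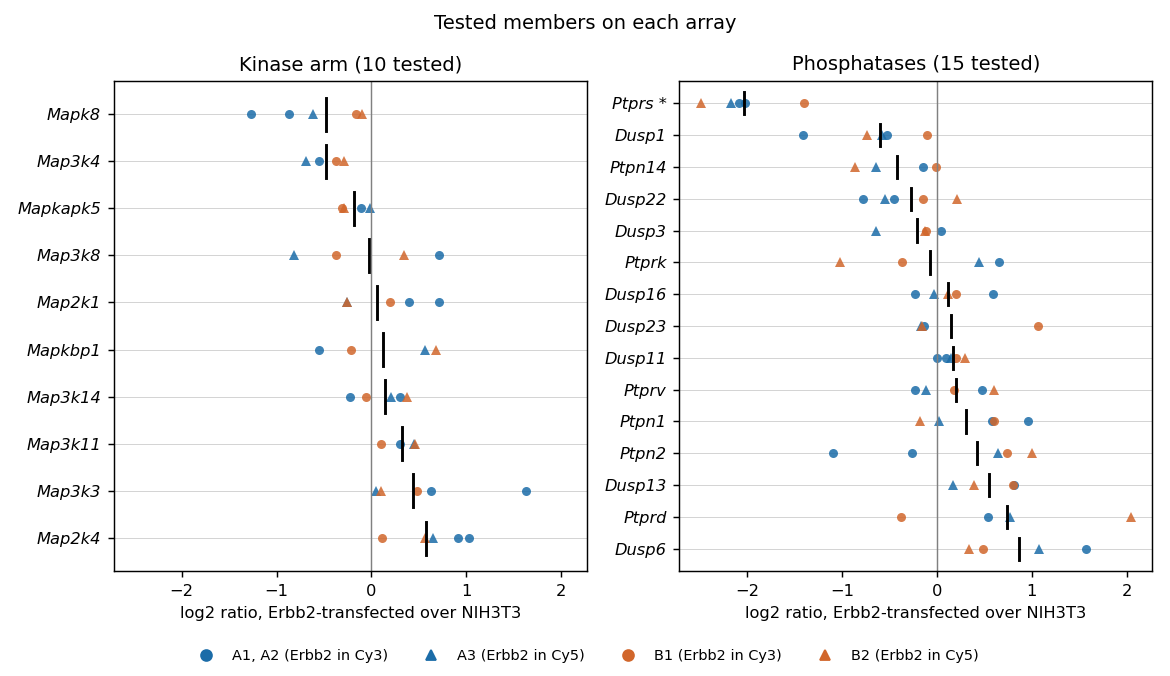
Log2 ratio of Erbb2-transfected over NIH3T3 cells (horizontal axis) for each tested gene of the kinase arm (left) and the phosphatases (right); points are arrays, coloured by preparation and shaped by the dye of the Erbb2-transfected cDNA, and black bars are the means of the 2 preparations. Ptprs, marked with an asterisk as past the threshold, lies at -2.49 to -1.40, and the other genes have means between -0.60 and 0.87.

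The other receptor-like phosphatases were measured less evenly. Ptprd, a close relative of Ptprs in the LAR family of cell adhesion phosphatases, had 0.54 on A2, 0.77 on A3, -0.38 on B1 and 2.05 on B2. B1 and B2 thus lay on opposite sides of 0, and the SD of the preparation means, in 0.74 ± 0.13 (limma adjusted p = 0.0536), does not show this spread. Ptprd passed without A1, which held no value for it (adjusted p = 0.0316), or B1 (adjusted p = 0.00363) and lay at 0.14 without B2 (adjusted p = 0.851).

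Ptprk, a homophilic adhesion phosphatase known to act on EGFR, had 0.65 on A2 and 0.44 on A3 but -0.36 on B1 and -1.02 on B2. Its arrays thus separated by preparation, and the mean was -0.073 ± 0.88 (adjusted p = 0.905). Ptprv ran from -0.23 on A1 to 0.60 on B2, with a mean of 0.20 ± 0.27. Of the 8 untested receptor phosphatases, Ptprm, another homophilic adhesion phosphatase, had 0.60 on A1, 1.13 on A2 and 0.20 on B1, and was above 0 on all 3, all with Erbb2-transfected cDNA in Cy3. Ptprz1 lay at -1.02 on A2 and -0.80 on B1. Ptprc, which encodes the leukocyte phosphatase CD45, had -1.44 on A3 and -0.0084 on B1, and Ptprcap had 0.80, 0.76 and 0.25 on A2, B1 and B2.

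Among the MAP kinase phosphatases, Dusp6 and Dusp1 had the largest differences, in opposite directions, and neither passed. Dusp6, a cytosolic phosphatase of ERK that ERK signalling induces, had 1.58 on A2, 1.08 on A3, 0.49 on B1 and 0.34 on B2. All 4 arrays were above 0, and both of preparation A lay above both of B. The mean was 0.87 ± 0.65 (95% interval 0.33 to 1.41; adjusted p = 0.0582). It passed in 5 of the 14 alternatives compared for it, each with the same mean of 0.87. Among them were the fit on 5 arrays with a dye term (adjusted p = 0.046) and the fit without A1, an array with no value for it (adjusted p = 0.0153). The fit on complete probes, added after seeing the data, was another. In the rest of the 14 it did not pass, with limma adjusted p up to 0.184.

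Dusp1, a nuclear phosphatase and immediate early gene that acts on JNK, p38 and ERK, had -0.53 on A1, -1.41 on A2, -0.58 on A3, -0.10 on B1 and -0.74 on B2. All 5 arrays were below 0, with A2 farthest from it. The mean was -0.60 ± 0.25 (95% interval -1.06 to -0.14; adjusted p = 0.119). Of the 15 alternatives compared for Dusp1, it passed only without A1, at -0.71 (adjusted p = 0.0473). Dusp16, a phosphatase of JNK and p38, averaged 0.12 ± 0.065 over a pair of probes that differed. One probe lay between -0.23 and -0.036 on the 5 arrays, and the other gave 1.30 on A2, with 0.49 and 0.45 on the pair of arrays from B.

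Of the untested MAP kinase phosphatases, Dusp7, which acts on ERK, had 0.97 on A1, 0.75 on A2 and 0.74 on B1 but -0.13 on B2, the 1 array with Erbb2-transfected cDNA in Cy5. Dusp4, a nuclear phosphatase induced by ERK signalling, was nearest to 0 on B2, at -0.046, with -0.60 on A2 and -0.39 on B1. Dusp2 was above 0 on the same arrays, at 0.40 on A2, at 0.060 on B1 and at 0.41 on B2. The phosphatases of ERK thus did not lie on 1 side of 0, and 0 of the 3 tested MAP kinase phosphatases passed (limma, 2 at an unadjusted p under 0.05).

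The other dual-specificity phosphatases, several of which act on substrates beyond MAP kinases, had 5 tested genes, none past the threshold (limma, 1 at an unadjusted p under 0.05). Dusp13 had 0.81 on A2, 0.17 on A3, 0.80 on B1 and 0.39 on B2, with a mean of 0.54 ± 0.072 (adjusted p = 0.143). It was above 0 on 4 arrays, and higher on both with Erbb2-transfected cDNA in Cy3. Dusp22, known for acting in JNK signalling, was below 0 on 4 arrays, at -0.78, -0.45, -0.55 and -0.14 on A1, A2, A3 and B1, and had 0.21 on B2. Its mean was -0.28 ± 0.44.

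Dusp11, a phosphatase of RNA ends, stayed between -0.00027 and 0.29 on the 5 arrays. Dusp3 averaged -0.21 ± 0.13 over 3 probes, of which 1 had -1.10 on A3 and another 0.53 on B1. Dusp23 averaged 0.15 ± 0.43. Outside the test, Dusp14 was below 0 on 4 arrays, at -0.94 on A1, -0.25 on A2, -0.79 on B1 and -0.46 on B2. Dusp12 also lay below 0, at -0.64 on A1, -0.61 on A2 and -0.098 on B1, and Dusp28 above it, between 0.19 and 0.59.

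Of the cytosolic tyrosine phosphatases, 3 were tested and none passed (limma, 0 at an unadjusted p under 0.05). Ptpn1 encodes PTP1B, which dephosphorylates insulin and growth factor receptors. It had 0.58 on A1, 0.96 on A2, 0.018 on A3, 0.60 on B1 and -0.18 on B2, with a mean of 0.30 ± 0.13. Its arrays with Erbb2-transfected cDNA in Cy3 were all above those in Cy5. On both arrays in Cy5 its pair of probes lay on opposite sides of 0. They had 0.29 and -0.26 on A3, and -0.58 and 0.23 on B2. Ptpn2, a nuclear relative of PTP1B, had -1.10 and -0.26 on A1 and A2 and 0.64, 0.73 and 1.00 on A3, B1 and B2, so that the mean was 0.43 ± 0.63. Ptpn14, a phosphatase linked to cell junctions and YAP, had -0.15, -0.64, -0.015 and -0.87 on A2, A3, B1 and B2, below 0 on all 4, with a mean of -0.42 ± 0.033 (adjusted p = 0.246). This SD hides the spread between arrays: both in Cy5 lay farther from 0, and the mean was -0.63 without B1 and -0.20 without B2.

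Ptpn11, the gene of SHP2, which transmits receptor signals to RAS, had a value on B1 alone, at 0.14. Ptpn6, the related SHP1 of blood cells, had -0.59 on B1 alone. Ptpn23 had 0.50 on A3 and 0.39 on B2. For Ptpn18, no array had a value.

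In the kinase arm, 0 of 10 tested genes passed (limma, 2 at an unadjusted p under 0.05), and their median was 0.089. Map2k1, the gene of MEK1, a MAP2K of the ERK arm, had 0.40 on A1, 0.71 on A2, -0.26 on A3, 0.20 on B1 and -0.26 on B2. It was above 0 on each array with Erbb2-transfected cDNA in Cy3 and below 0 on both in Cy5, and the mean was 0.059 ± 0.13 (95% interval -0.39 to 0.51). Map2k2, the gene of MEK2, was not tested and had 0.14, 0.093 and -0.22 on A2, B1 and B2. Its pair of probes lay on opposite sides of 0, one at 0.14 on A2 and 0.37 on B1, the other at -0.18 on B1 and -0.22 on B2. No difference of Map2k1 was detectable with these arrays.

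Map2k4 and Mapk8 of the JNK arm had the largest mean differences among the tested kinases, with opposite signs, and neither passed. Mapk8, at -0.48, lay hardly beyond the MAP3K gene Map3k4, at -0.47, so size does not set this arm apart. Map2k4, the gene of MKK4, which activates JNK, had 1.02 on A1, 0.92 on A2, 0.65 on A3, 0.12 on B1 and 0.56 on B2. All 5 were above 0, and the 3 arrays of preparation A above both of B. The mean was 0.58 ± 0.33 (95% interval 0.10 to 1.05; adjusted p = 0.143). Mapk8, the gene of JNK1, had -1.27, -0.87 and -0.61 on the arrays of preparation A, in the order A1 to A3, and -0.16 on B1 and -0.094 on B2. It was below 0 on all 5, again farther from 0 in preparation A, and the mean was -0.48 ± 0.50 (adjusted p = 0.238). Mapk9, the gene of JNK2, had 0.23, 0.25 and -0.012 on A2, B1 and B2.

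Among the MAP3K genes, 5 were tested. Map3k4, which binds GADD45 proteins and feeds the p38 and JNK arms, had -0.55, -0.69, -0.37 and -0.29 on A2, A3, B1 and B2, below 0 on all 4, with a mean of -0.47 ± 0.20 (adjusted p = 0.203). Map3k3, or MEKK3, had 0.63 on A1, 1.63 on A2, 0.049 on A3, 0.48 on B1 and 0.10 on B2. It was above 0 on all 5, with the arrays in Cy3 above those in Cy5, and the mean was 0.44 ± 0.21 (adjusted p = 0.235). The B1 value averaged a pair of probes, of which one had 0.84 and no value on any other array. The other probe, measured on all 5, had 0.12 on B1, close to its 0.10 on B2. Map3k11, or MLK3, lay between 0.097 and 0.46 on 4 arrays, with a mean of 0.33 ± 0.068.

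Map3k14, the kinase NIK of the noncanonical NF-kB pathway, had a mean of 0.14 ± 0.024 and both signs. Map3k8, the ERK-activating kinase TPL2, had 0.71 on A2 and -0.82 on A3, and -0.37 on B1 and 0.35 on B2, which averaged to -0.031 ± 0.029. Its small SD thus hides a spread that did not follow dye or preparation. Outside the test, Map3k7, the gene of TAK1, was below 0 on 3 arrays, at -0.82, -0.16 and -0.60 on A2, B1 and B2.

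The p38 arm had no tested gene. Mapk11, the gene of p38 beta, was above 0 on 3 arrays, at 0.40 on A3, 0.78 on B1 and 0.75 on B2. Mapk14, the gene of p38 alpha, had 0.0025 on B1 alone, and Mapk12, of p38 gamma, 0.77 on B1 alone. Of the kinases downstream of p38, Mapkapk5 had a mean of -0.18 ± 0.17, with all 4 arrays between -0.31 and -0.015. Mapkapk2 had 0.12 and -0.12 on A2 and B1 against -1.84 on A3. Map2k5, of the ERK5 arm, and Mapk6, an atypical MAP kinase, each had a value above 0 on B1 and below 0 on B2, at 0.65 and -0.68 and at 1.40 and -1.02. For both genes these arrays differ in dye orientation.

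**Figure D2:**
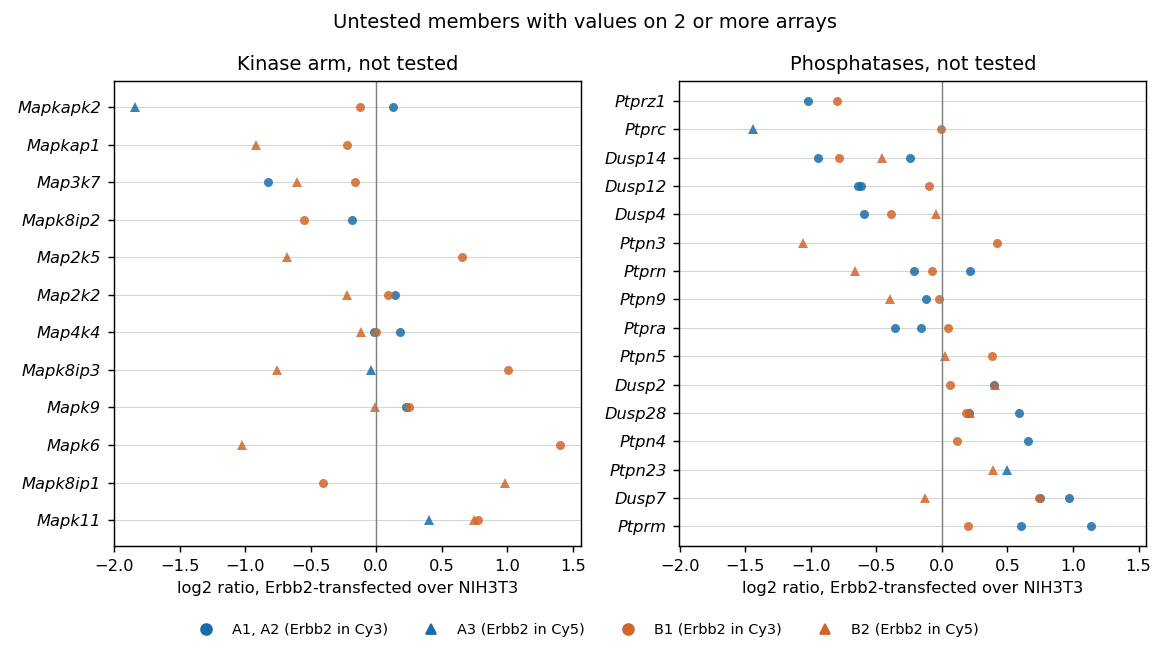
Log2 ratio of Erbb2-transfected over NIH3T3 cells (horizontal axis) for the untested genes with values on 2 or more arrays, in the kinase arm (left) and the phosphatases (right); points are arrays, coloured by preparation and shaped by dye. Mapk6 spans -1.02 to 1.40, and all 4 arrays of Dusp14 lie below 0.

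The scaffolds and other binding proteins had 1 tested gene. Mapkbp1, a JNK-binding protein, had -0.55 on A2 and -0.22 on B1 but 0.57 on A3 and 0.68 on B2, so that its sign followed the dye, and its mean was 0.12 ± 0.16. The JNK scaffolds Mapk8ip1 and Mapk8ip3 had both signs. Mapk8ip2 had -0.19 on A2 and -0.55 on B1. Mapkap1, a subunit of the mTORC2 complex and no part of a MAP kinase cascade, had -0.22 on B1 and -0.92 on B2.

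Of the 48 untested genes, 47 had a value, 18 of them on 1 array only, which for 17 was B1. Of the 29 with several values, 8 were above 0 and 9 below 0 on each array, and 12 had both signs. The values of all 47 ran from -1.84 to 1.40. With these arrays, no direction can be given for genes seen once.

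A dye effect, tested with limma on the 5 arrays, was called for 0 of the 25 genes, against 0.143% of all tested features. At an unadjusted p under 0.05 there were 3 of the 25 genes and 633 of 4892 features, so the genes did not exceed the background. The 3 were Ptprd, Mapkbp1 and Ptpn1, with differences between Erbb2-transfected cDNA in Cy5 and in Cy3 of 1.33, 1.01 and -0.79 (adjusted p = 0.328, 0.326 and 0.373). Ptprs had a difference of -0.49 (adjusted p = 0.598).

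**Figure D3:**
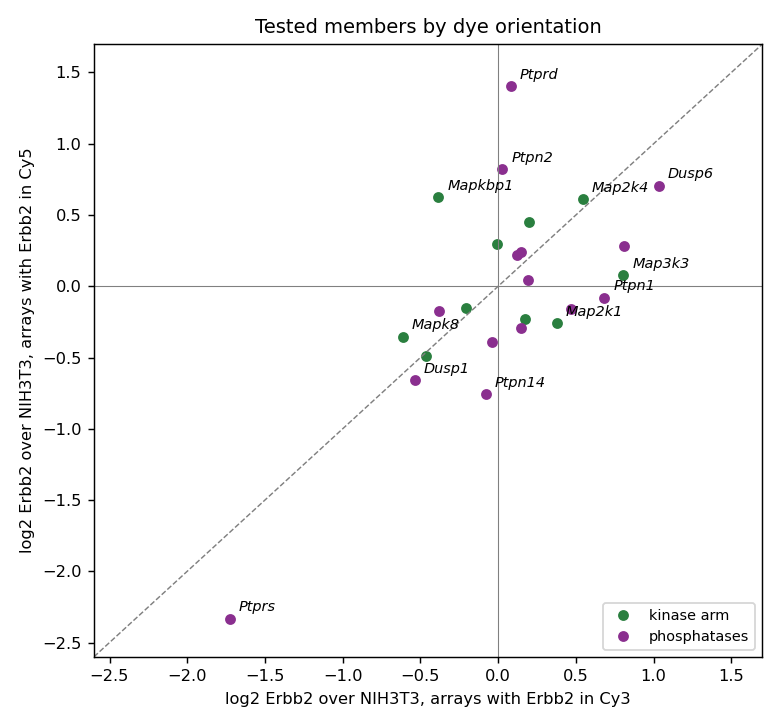
Mean log2 ratio of Erbb2-transfected over NIH3T3 cells on arrays with Erbb2-transfected cDNA in Cy3 (horizontal) and in Cy5 (vertical) for the 25 tested genes, coloured by arm; the dashed line marks equal values. Ptprs lies at -1.73 and -2.33, and Ptprd at 0.080 and 1.41.

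Between preparations, 0 of the 25 genes differed by limma's test, against 0.0204% of all tested features. An unadjusted p under 0.05 was found for 3 of the 25 genes and for 330 of 4892 features. The 3 genes, Ptprk, Ptpn2 and Dusp6, had differences of preparation A minus B of 1.24, -0.96 and 0.91 (adjusted p = 0.609, 0.694 and 0.714). For Ptprs the difference was -0.24 (adjusted p = 0.977). Ptprk had preparation means of 0.55 and -0.69, with both arrays of A above 0 and both of B below.

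**Figure D4:**
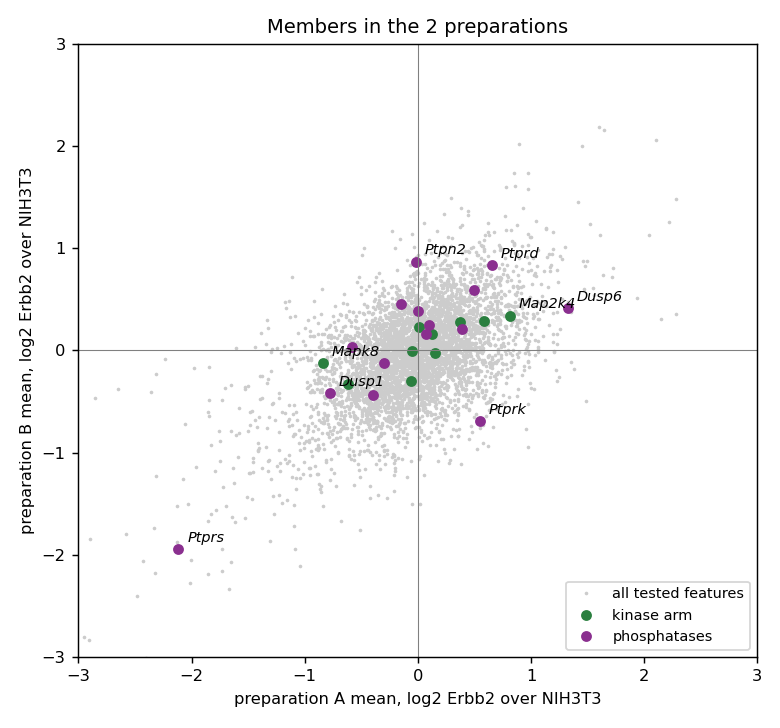
Mean log2 ratio of Erbb2-transfected over NIH3T3 cells in preparation A (horizontal) and preparation B (vertical) for all 4892 tested features (grey) and the 25 tested genes, coloured by arm; 20 features lie beyond the limits of 3 and are not drawn. Ptprs lies at -2.12 and -1.94, and Ptprk at 0.55 and -0.69.

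Around these families, 84 other genes of the pathway were listed in 7 groups, of which 49 had a value and 20 were tested. Of these, 2 rose and 2 fell (20% of those tested, against 6.79% of all tested features), and the median was -0.093. The lists were chosen with earlier results of these data known, so this share cannot be read as an excess. Of 2 tested receptor genes, 1 fell, and Erbb2 itself had no probe assigned to it alone. Igf1r, the IGF1 receptor, had -0.76, -0.45, -0.44, -0.64 and -1.71 on A1, A2, A3, B1 and B2, with a mean of -0.85 ± 0.46 (limma adjusted p = 0.0479). All 5 arrays were below 0, B2 farthest. Igf1r did not pass without A3 (adjusted p = 0.122) or without B2 (-0.58, adjusted p = 0.198). It also did not pass after re-centring, equal scaling of spread, quantile normalisation or limiting of extreme values, or with at least 1 value per preparation (adjusted p between 0.0502 and 0.167). Neither the 1 tested adaptor gene nor the 3 tested RAS and RAF genes passed (limma, 1 of the latter at an unadjusted p under 0.05). None of 7 kinases downstream of ERK and p38 and none of 9 ERK-induced feedback inhibitors could be tested. Most genes of both lists had no probe assigned to them alone. Of the inhibitors, 3 had values, all above 0. Ier3 had 0.86 on A1, 1.10 on A2, 0.45 on B1 and 0.14 on B2. Errfi1 had 0.40 on A3, 0.65 on B1 and 0.32 on B2, and Spry2 had 0.27 on B1 alone.

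Among 9 tested transcription factors, 1 rose. Fosl1, an AP-1 subunit induced by ERK signalling, had 1.18, 1.66, 1.19, 1.16 and 0.86 on A1, A2, A3, B1 and B2, above 0 on all 5, with a mean of 1.16 ± 0.20 (limma adjusted p = 0.00747). It did not pass when genes needed only 1 value per preparation (adjusted p = 0.0617). Of 5 tested inputs to the stress kinases, 1 rose and 1 fell. Traf6, a ubiquitin ligase upstream of TAK1, had 1.29 on A2, 1.06 on A3, 0.64 on B1 and 0.91 on B2, above 0 on all 4. Its mean was 0.97 ± 0.28 (limma adjusted p = 0.0194). Gadd45b, an activator of MAP3K4, had -1.56, -1.14, -0.82, -0.66 and -0.99 on A1, A2, A3, B1 and B2, below 0 on all 5, with a mean of -0.95 ± 0.18 (adjusted p = 0.0193). Neither passed without A3, B1 or B2 (adjusted p between 0.0505 and 0.0632), with equal scaling of spread (adjusted p = 0.0577 for both) or with at least 1 value per preparation (adjusted p = 0.103 for both). With the probe measured on most arrays alone Gadd45b had -0.27 (adjusted p = 0.503).

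**Figure D5:**
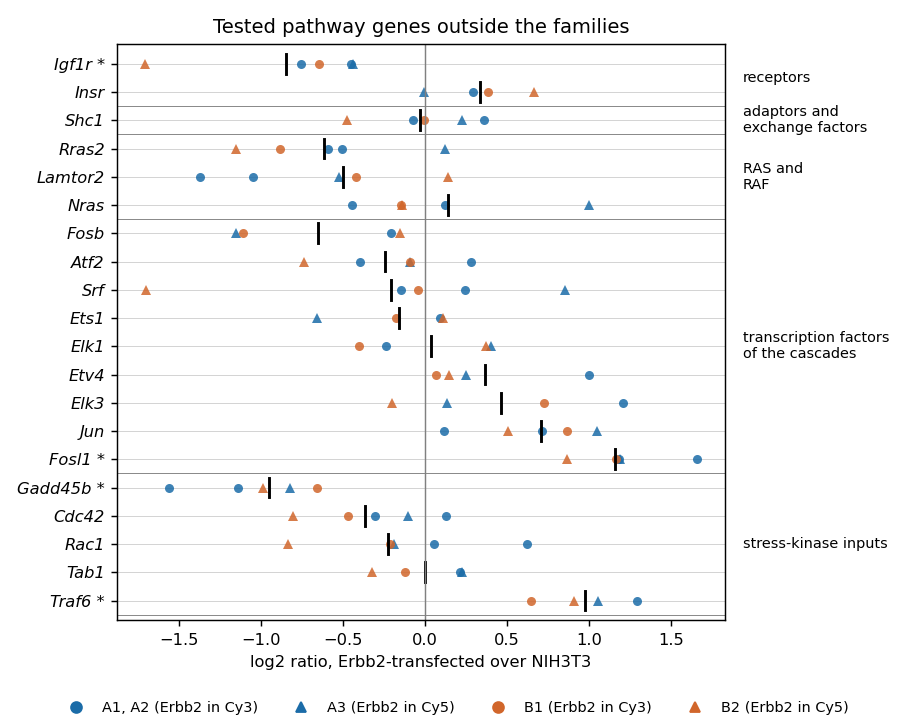
Log2 ratio of Erbb2-transfected over NIH3T3 cells (horizontal axis) for the 20 tested pathway genes outside the families, grouped by role; points are arrays, coloured by preparation and shaped by dye, black bars are means of the 2 preparations and asterisks mark genes past the threshold. Fosl1 and Traf6 lie above 0 and Igf1r and Gadd45b below 0 on each array with a value.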

How the data were processed

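Per the labels, the authors scanned each array with GenePix and read the images with GenePix Pro 3.0, subtracted the background from mean spot intensities and scaled each array to a median ratio of 1. How they set empty values is not stated in the labels. The deposited numbers were taken as log2 ratios of the dyes: after removal of the constant per array that gave the highest share, 16.5% (B1) to 49.8% (A2) of them fell on log2 ratios between integers no larger than 300, to within 6e-07, against 1.88% and 1.82% under a natural log. Arrays of opposite dye orientation correlated between -0.542 and -0.174 as deposited, and the signs of the 3 arrays that the labels give with Erbb2-transfected cDNA in Cy3 were turned here.

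Probes of 1 symbol were averaged to a gene and other probes kept as features. Arrays of 1 dye orientation were averaged within a preparation, then the orientations. The 4892 features with a value for each orientation in each preparation were tested against 0 with lmFit and eBayes (limma 3.58.1, R 4.3.3), with 1 residual and 10.2 prior degrees of freedom. Dye and preparation effects were fitted with limma on the 5 arrays. The fit on preparation means was tried on simulated data that held no dye or preparation effect, so this does not test how the averaging handles them. Figures used matplotlib 3.10.9 under Python 3.11.15.

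Members, lists and alternatives were chosen with earlier results of these data known. All tested genes could be named, besides untested ones with 3 or more values of 1 sign from both preparations and a mean of at least 0.5 in size, a list of core genes, and up to 4 genes per pathway list. Other untested genes (among them Dusp7, Dusp12, Mapk6, Mapkapk2, Ptprz1 and the scaffolds) were chosen after their values were seen. All 88 probes had an Entrez identifier in the GRCm38.p6 gene table, which changed 0 symbols.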

Additional observations from a re-analysis of the deposited data

Results flagged for a closer look

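Among 30 genes measured on 4 or 5 arrays, 2 had a single array far from the rest, which about 5% of genes would have by chance. Dusp23 had 1.07 on B1, against -0.16 to -0.13 on A2, A3 and B2. The B1 value came from a probe that had -0.10 on B2 and no value in preparation A. Dusp28 had 0.59 on A2, against 0.19 to 0.22 on A1, B1 and B2. On B1 its pair of probes had 0.37 and 0.0028.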

How the results depend on the processing

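Ptprs kept its direction and passed the threshold in each of 16 alternatives, between -2.30 and -1.76. Of the 25 tested genes, 18 kept their sign in all alternatives run and 7 did not, each of the 7 with an absolute mean of at most 0.21. The count of genes past the threshold, 1, became 2 on 5 arrays with a dye term and 3 with plain means of arrays, with the probe measured on most arrays and with each probe tested alone. It was 3 when only probes complete in both orientations were averaged, an alternative added after seeing the data, and ranged from 1 to 4 when 1 array was left out. The added genes were Dusp6, Ptprd and, without A1, Dusp1. All were phosphatases, so their count was 1 and moved to the same numbers, while 0 genes of the kinase arm passed in any setting. The main fit tested 10 genes of that arm and called 6.79% of all features. A count of 0 thus does not set the arms apart. Calls over all features rose too, from 332 of 4892 to 462 with a dye term and 414 with plain means. They were 471 of 4758 with the probe measured on most arrays and 498 of 4844 without A1.

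Over all features, 332 calls became 149 with at least 1 value per preparation, 124 after scaling to equal spread, 193 after quantile normalisation, 529 with each probe alone, 564 with complete probes, 120 at an adjusted p under 0.01, and 198 to 498 without 1 array. The cause of these changes was not tested. No paired analysis was possible because each array already pairs both cell lines and the repetition numbers of the preparations do not mark shared samples.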
